A study of Mus musculus with 12 samples.

Results

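The genes described here build, line and acidify the lysosome. They are 39 genes chosen by name for their role, out of 24499 gene symbols counted in the series. The rule itself uses no measured value, but earlier results of these data were known when the genes were chosen. All 39 have a row in the table. They comprise 16 genes of the vacuolar proton pump (V-ATPase: 6 of the membrane sector V0, 8 of the cytosolic sector V1 and 2 accessory proteins), 7 lysosomal membrane proteins, 7 glycosidases, 6 genes for lipid hydrolases, their cofactors and the peptidase Tpp1, and 3 MiT/TFE transcription factors.

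Lysosomes digest what a cell takes up or turns over. The V-ATPase pumps protons into them, so that the acid hydrolases work, and heavily glycosylated membrane proteins such as Lamp1 and Lamp2 line the inner face. The MiT/TFE factors Tfeb, Tfe3 and Mitf switch on many of these genes together by binding an E-box-like sequence called the CLEAR element. In dendritic cells and macrophages, lysosomes degrade lipoproteins, dead cells and antigens, and dendritic cells are known to adjust pump activity and proteolysis as they mature.

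RNA was counted in 12 libraries, 6 from wildtype mice (C57BL6 in the growth protocol) and 6 from mice labelled APOE-KO, which lack the lipid carrier apolipoprotein E. Every mouse had received E0771-cOC tumours (the line E0771 comes from a mouse mammary carcinoma), and its tumour-draining nodes were taken on day 9, digested, and enriched for cells carrying CD11c with magnetic beads. The comparison asks how these cells differ between the genotypes. There is no group without a tumour, and age, sex, the making of the allele and the number of mice behind a library were not given in the sources used here, so p-values measure the spread between libraries, which may be technical.

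The libraries held 2381477 to 4898360 counts, and the log2 totals gave no detectable genotype difference (two-sided exact permutation p = 0.455). The ribosomal RNA gene Rn45s took 2.71% to 32.2% of a library. APOE-KO library 5, wildtype library 1 and wildtype library 3 lay farthest out on the principal components with 25.4%, 18.9% and 14.6% of the variance. Apoe followed the labels, with 838 to 2919 reads in each wildtype library and 13 to 30 in each APOE-KO library. All 14 genes listed for dendritic cells were detected. CPM are read counts scaled to library size, not to gene length. The list summed to 13699 to 18319 CPM in wildtype and 14830 to 17070 in APOE-KO. Most of this came from H2-Aa, H2-Ab1 and Cd74, with means of 6350, 3071 and 2403 CPM in wildtype and 6058, 3041 and 2387 in APOE-KO. Flt3 and Zbtb46 had 126 and 21.0 CPM in wildtype and 135 and 22.5 in APOE-KO. H2-Aa, H2-Ab1 and Cd74 are not confined to dendritic cells, so the sum does not measure purity. Markers of other cells were found as well: those of B cells summed to 594 to 882 CPM and those of T cells to 398 to 532 CPM over the 12 libraries. Much of the T cell sum came from Cd8a and Cd4 (131 and 76.7 CPM in wildtype, 130 and 78.8 in APOE-KO). Cd3d and Cd3e had 50.8 and 15.9 CPM in wildtype and 56.6 and 16.9 in APOE-KO. Neither sum measures cell numbers.

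Of the 39 members, 38 had enough reads to be tested. In edgeR's quasi-likelihood test, adjusted over all 10714 tested genes, 3 members rose in APOE-KO: the membrane proteins Lamp1 and Cd63 and the pump subunit Atp6v0d2. Atp6v0d2 had enough reads to be tested only through its APOE-KO libraries, so it entered these counts through the group where it is high. Over all tested genes 1.08% were called higher. No member was called lower, where 0.411% of all tested genes were, and no member had a negative change with an unadjusted p under 0.05. Over all 10714 tested genes, 1294 had an unadjusted p under 0.05, of which 672 were higher and the rest lower. Neither DESeq2 nor limma-voom called a member lower.

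The other members lay mostly on the same side without passing. A positive log2 fold change was found in 33 of 38 members, against 47.2% of all tested genes. The median log2 fold change of the members was 0.26, and that of all tested genes was -0.02. An unadjusted p under 0.05 in the higher direction was reached by 13 members, against 6.27% of all tested genes. In 6 members every APOE-KO library lay above every wildtype library (Lamp1, Cd63, Atp6v0d2, Atp6v0d1, Atp6v1g1 and Hexa), where 1.23% of all tested genes did so. In none did every APOE-KO library lie below, against 0.541% of all tested genes. The 35 tested members that did not pass ran from -0.14 to 0.84 on the log2 scale. In bulk libraries such as these, more cells of a type and more RNA per cell cannot be told apart.

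**Figure D1:**
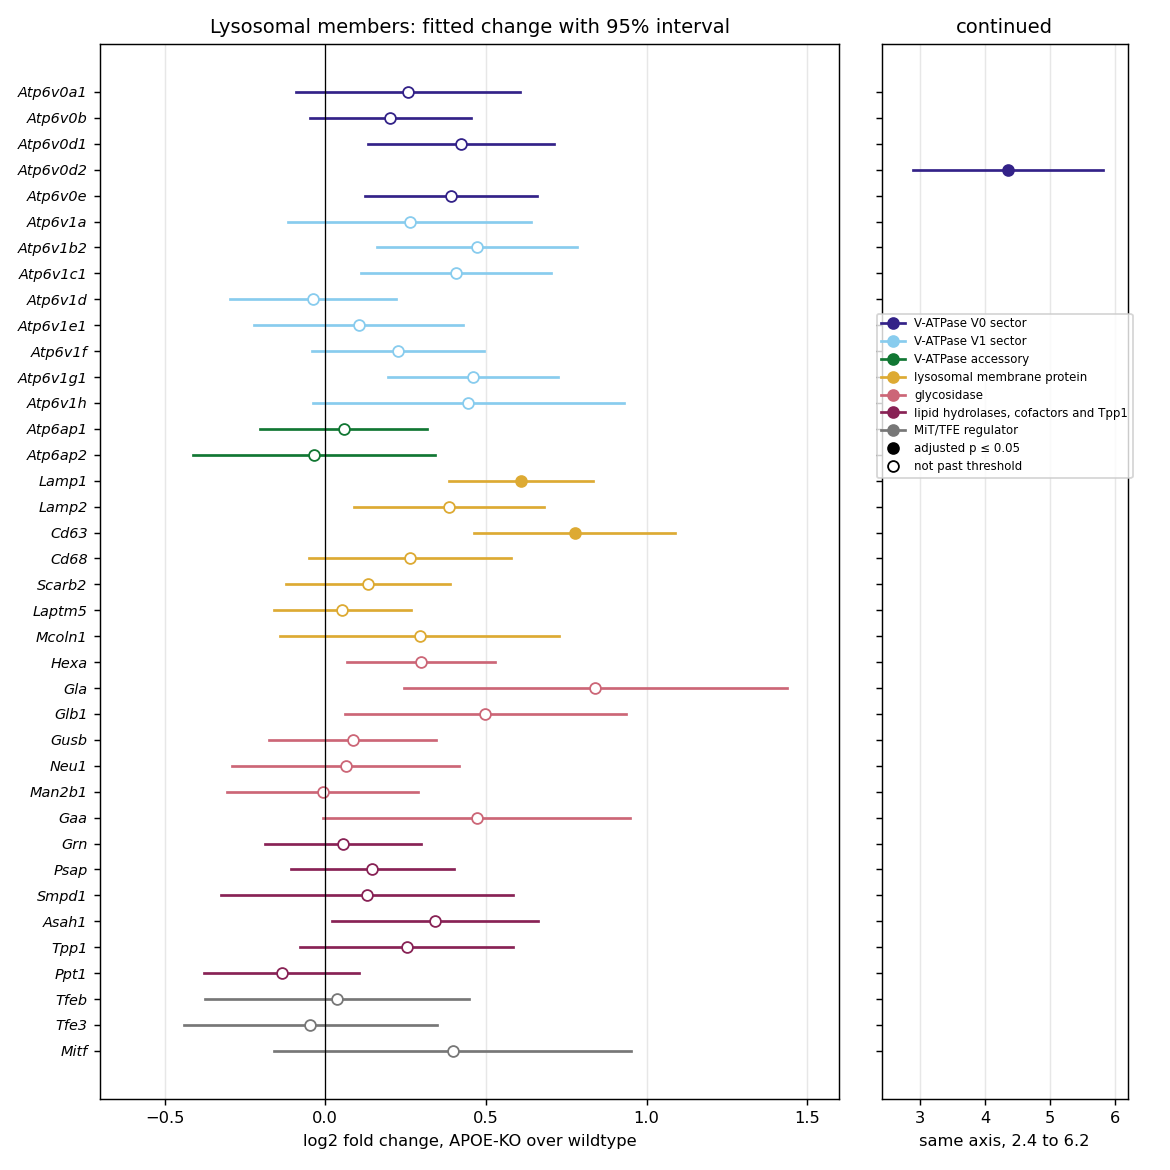
Log2 fold change of each tested member, APOE-KO over wildtype, with its 95% interval, coloured by class. The right panel continues the axis for Atp6v0d2. Filled points mark the 3 members past the threshold, and 33 of 38 points lie to the right of 0.

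Since the MiT/TFE factors act through the CLEAR element, the RefSeq promoter windows of the members (GRCm38.p6, 250 bases before to 50 after a start site) were searched on both strands for CACGTG (the E-box), for TCACGTGA (the core of the CLEAR element, which always holds an E-box) and for TCATGTG (the M-box). Windows were found for 33 members. Asah1, Atp6v0d2, Atp6v1b2, Atp6v1c1, Atp6v1g1 and Atp6v1h were not matched. The E-box letters stood in 9 of the 33 (27.3%), against 8.09% of 27025 genes. The CLEAR core stood in 5 (Atp6v0d1, Atp6v0e, Atp6v1a, Gla and Mcoln1, 15.2%), against 1.125% of all genes, and the M-box in 6 (18.2%), against 4.31%.

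The windows below are those of Lamp1, which held the most E-boxes of any member, of Atp6v0d1, Gla and Mcoln1, which hold the CLEAR core, and of Cd63, a member that rose and whose window holds none of the 3 motifs. Each is written 5′ to 3′ on the strand of its gene, with CACGTG in capitals. Lamp1 is shown from chr8:13158911-13159210 (plus strand), Atp6v0d1 from chr8:105566015-105566314 (minus), Gla from chrX:134600956-134601255 (minus), Mcoln1 from chr8:3500269-3500568 (plus) and Cd63 from chr10:128909095-128909394 (plus).
Lamp1: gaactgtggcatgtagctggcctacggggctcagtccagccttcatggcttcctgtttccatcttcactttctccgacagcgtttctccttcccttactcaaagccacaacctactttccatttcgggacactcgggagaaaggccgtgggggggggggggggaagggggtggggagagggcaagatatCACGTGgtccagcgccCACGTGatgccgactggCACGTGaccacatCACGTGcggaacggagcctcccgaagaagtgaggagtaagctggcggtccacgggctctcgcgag
Atp6v0d1: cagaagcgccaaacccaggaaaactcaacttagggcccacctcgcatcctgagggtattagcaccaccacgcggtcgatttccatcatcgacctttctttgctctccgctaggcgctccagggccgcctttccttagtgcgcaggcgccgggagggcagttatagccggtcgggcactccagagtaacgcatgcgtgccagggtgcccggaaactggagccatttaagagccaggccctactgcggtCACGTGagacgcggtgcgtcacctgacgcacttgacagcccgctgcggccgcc
Gla: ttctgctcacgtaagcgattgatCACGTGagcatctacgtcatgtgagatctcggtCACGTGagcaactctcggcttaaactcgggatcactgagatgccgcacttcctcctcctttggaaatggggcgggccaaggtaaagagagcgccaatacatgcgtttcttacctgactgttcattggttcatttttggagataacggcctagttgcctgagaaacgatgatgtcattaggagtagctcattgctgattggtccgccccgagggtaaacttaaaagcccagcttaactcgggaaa
Mcoln1: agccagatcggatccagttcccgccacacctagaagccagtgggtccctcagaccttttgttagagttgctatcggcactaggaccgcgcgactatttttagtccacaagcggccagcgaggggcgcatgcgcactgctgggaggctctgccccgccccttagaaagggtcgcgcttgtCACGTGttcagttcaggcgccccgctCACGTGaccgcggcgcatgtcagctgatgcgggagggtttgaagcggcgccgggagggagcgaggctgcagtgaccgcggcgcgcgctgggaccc
Cd63: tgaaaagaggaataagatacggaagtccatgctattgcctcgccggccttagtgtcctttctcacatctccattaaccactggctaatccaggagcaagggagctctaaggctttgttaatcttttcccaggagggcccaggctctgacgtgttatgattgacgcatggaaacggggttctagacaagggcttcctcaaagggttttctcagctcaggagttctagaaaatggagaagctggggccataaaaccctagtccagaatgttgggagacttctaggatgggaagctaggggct

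In Lamp1 the 4 E-boxes begin at positions -61, -45, -28 and -15, counted from the first transcribed base as position 0. That of Atp6v0d1 begins at -3, those of Mcoln1 at -71 and -45, and those of Gla at -227 and -194. The window of Cd63 surrounds a start inside the span that GENCODE gives the gene, which opens at 128900989. As a description with no test, the 9 members with an E-box had a median log2 fold change of 0.42 and all 9 were positive. The 23 tested members whose windows lack it had a median of 0.10, and 18 were positive. For the CLEAR core the medians were 0.39 with it (5 of 5 positive) and 0.13 without it (22 of 27). For the M-box they went the other way, at 0.13 with it (4 of 5 positive) and 0.23 without it (23 of 27). A match shows only that the letters are there. The CLEAR element is described for genes of this kind, so its share among them carries no information on genotype. The genes it was set against include ones not tested here.

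The V0 sector carries protons through the membrane. Its d subunit links the sector to the rotating stalk and exists in a widely expressed form, Atp6v0d1, and a form, Atp6v0d2, known from osteoclasts and some macrophages. Atp6v0d2 had no read in 4 wildtype libraries, 2 reads in wildtype library 5 and 11 in wildtype library 4, against 38, 25, 55, 58, 48 and 47 reads in APOE-KO libraries 1 to 6. Every APOE-KO library was above every wildtype library. Mean levels were 0.51 ± 1.00 CPM without the knockout and 12.3 ± 4.44 CPM with it (SD, n = 6 each), and the log2 fold change was 4.35 ± 0.71 (SE, adjusted p = 0.00103). The gene passed the low-count filter only through its APOE-KO libraries, so its being tested depended on the group where it is high. It was also called in the fit without that filter.

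The size of the rise in Atp6v0d2 is poorly fixed by so few wildtype reads. As a ratio of summed reads per scaled library size, 13 reads against 271 gave 20.3, with a 95% exact binomial interval of 11.7 to 38.6 that covers counting error only. The fit, which also takes in the spread between libraries, gave a 95% interval of 2.89 to 5.82 on the log2 scale. Without wildtype library 4, which held 11 of the 13 wildtype reads, the ratio was 106 (29.0 to 876) on 2 reads against 271. Of the fits without 1 library, the adjusted p reached at most 0.00559. The gene spans 19876841 to 19922605 of chromosome 4, minus strand (GENCODE vM21, GRCm38), and overlaps no other annotated gene. Of 7 osteoclast markers 4 were tested, with a median log2 fold change of 0.75. Ctsk, a collagen-degrading protease, rose (7 reads over wildtype, 185 over APOE-KO, adjusted p = 0.00223 in edgeR's test), though DESeq2 called no marker of the list. Like Atp6v0d2, Ctsk passed the low-count filter only through its APOE-KO libraries. Acp5 and Dcstamp had log2 fold changes of 0.60 and 0.90 with unadjusted p of 0.00262 and 0.00512 but did not pass, and Nfatc1 had -0.22. Calcr had no read in any library and Oscar had 3 in all. The summed level of the osteoclast list was 170 to 199 CPM in wildtype against 177 to 239.97 in APOE-KO, and its part in the Atp6v0d2 result was not tested.

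Atp6v0d1 itself had 46.7, 51.0 and 63.9 CPM (lowest, median and highest) in wildtype and 68.3, 72.2 and 75.2 CPM in APOE-KO. The groups did not overlap, but the gene did not pass (log2 fold change 0.42 ± 0.14 SE, 95% interval 0.13 to 0.71, adjusted p = 0.165). Atp6v0e, a small membrane subunit, had a log2 fold change of 0.39 (adjusted p = 0.167). Atp6v0a1, which forms part of the proton path, and Atp6v0b, a proteolipid of the rotor ring, had 0.26 and 0.20 (adjusted p = 0.59 and 0.536). Atp6v0c, the main proteolipid of that ring, had no read in any of the 12 libraries, which allows up to 3 reads, or 0.525 to 1.59 CPM, in a library as far as counting error goes. Its pseudogene Atp6v0c-ps2 also stood at 0. How reads with several matches were treated was not given in the sources used here, so no level is read for this gene.

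The V1 sector splits ATP to turn the rotor, and no V1 member passed the threshold in edgeR's test, although 3 of 8 (Atp6v1g1, Atp6v1b2 and Atp6v1c1) had an unadjusted p under 0.05. The nearest was Atp6v1g1, a subunit of the outer stalk, with 72.6, 76.4 and 99.3 CPM in wildtype against 103, 110.1 and 114 in APOE-KO (lowest, median and highest). All 6 APOE-KO libraries were above all wildtype libraries. Its log2 fold change was 0.46 ± 0.13 (SE), with an adjusted p of 0.0795. The call is near its threshold: Atp6v1g1 passed in DESeq2 (adjusted p = 0.00964), in limma-voom (0.0476) and without wildtype library 1 (0.0365), the highest library of its group, and in 4 of 24 alternatives in all.

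The largest fitted change among V1 members was in Atp6v1b2, the nucleotide-binding B subunit, at 167 ± 33.7 CPM in wildtype against 233 ± 41.1 in APOE-KO (SD, n = 6 each; log2 fold change 0.47 ± 0.15 SE, adjusted p = 0.148). In this gene 4 of 6 APOE-KO libraries lay above all wildtype libraries. The stalk subunit Atp6v1c1 had 0.41 (adjusted p = 0.199), with 5 of 6 APOE-KO libraries above all wildtype libraries. Atp6v1h, a regulatory subunit, had 0.45 (adjusted p = 0.46), and 0.21 without APOE-KO library 5, where it was highest. Atp6v1a, the catalytic subunit, had 0.26, and Atp6v1f, a subunit of the central rotor stalk whose end is 99.4% identical to a processed pseudogene over 156 bases, had 0.23. Atp6v1e1, another outer-stalk subunit (0.10), and Atp6v1d, the rotor shaft (-0.04), lay nearest to 0.

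Summed over its members, the V1 sector stood at 1135.5 to 1332 CPM in wildtype against 1346 to 1580 in APOE-KO, with no overlap. The V0 sum was 505 to 649.5 and 635 to 804 CPM, which overlap. Neither sum was tested, since its members were chosen together. The accessory proteins, which help the pump assemble, lay near 0. Atp6ap1 had 230.2 ± 31.3 and 239.5 ± 28.3 CPM (SD, n = 6 each; log2 fold change 0.06 ± 0.13 SE, 95% interval -0.20 to 0.32, adjusted p = 0.918), and Atp6ap2, the prorenin receptor, had -0.03 (95% interval -0.41 to 0.34).

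**Figure D2:**
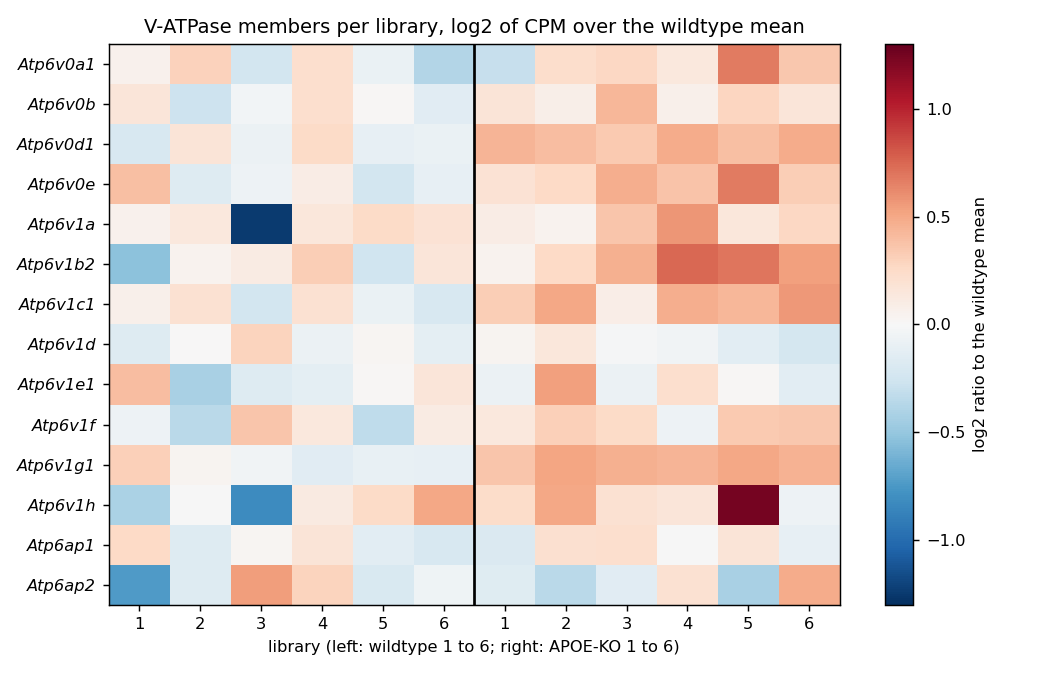
Each square is the log2 ratio of 1 library's CPM to the wildtype mean for a V-ATPase member (rows), with wildtype libraries 1 to 6 left of the line and APOE-KO libraries 1 to 6 right of it. Atp6v0b, Atp6v0d1, Atp6v0e, Atp6v1a, Atp6v1b2, Atp6v1c1 and Atp6v1g1 are above the wildtype mean in all 6 APOE-KO libraries. Atp6v1a is low in wildtype library 3 and Atp6v1h high in APOE-KO library 5. Atp6v0c (no reads) and Atp6v0d2 (no reads in 4 wildtype libraries) are not drawn.

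Among the membrane proteins Lamp1 and Cd63 rose, and all 7 members had a positive change. Lamp1, the most abundant lysosomal membrane glycoprotein in many cells, had 635, 768 and 867 CPM (lowest, median and highest) in wildtype and 1097, 1141 and 1288 CPM in APOE-KO. Every APOE-KO library was above every wildtype library. The log2 fold change of Lamp1 was 0.61 ± 0.11 (SE, adjusted p = 0.00245), a rise of 1.53-fold.

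Cd63, a tetraspanin of late endosomes, lysosomes and secreted vesicles, had 436, 580 and 849.8 CPM in wildtype against 894, 1012 and 1252 in APOE-KO (lowest, median and highest). The groups did not overlap, although wildtype library 3 came close to the lowest APOE-KO libraries. Its mean went from 611 ± 167 to 1047 ± 152 CPM (SD, n = 6 each), a 1.71-fold rise (log2 fold change 0.78 ± 0.15 SE, adjusted p = 0.00565). Cd63 spans 128900989 to 128912822 of chromosome 10 and Lamp1 spans 13159161 to 13175338 of chromosome 8, both on the plus strand. The end of Cd63 is 98.7% identical over 318 bases to its pseudogene Cd63-ps, which has no row in the table. The end of Lamp1 overlaps Grtp1 on the other strand, which had 4 reads over the 12 libraries.

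**Figure D3:**
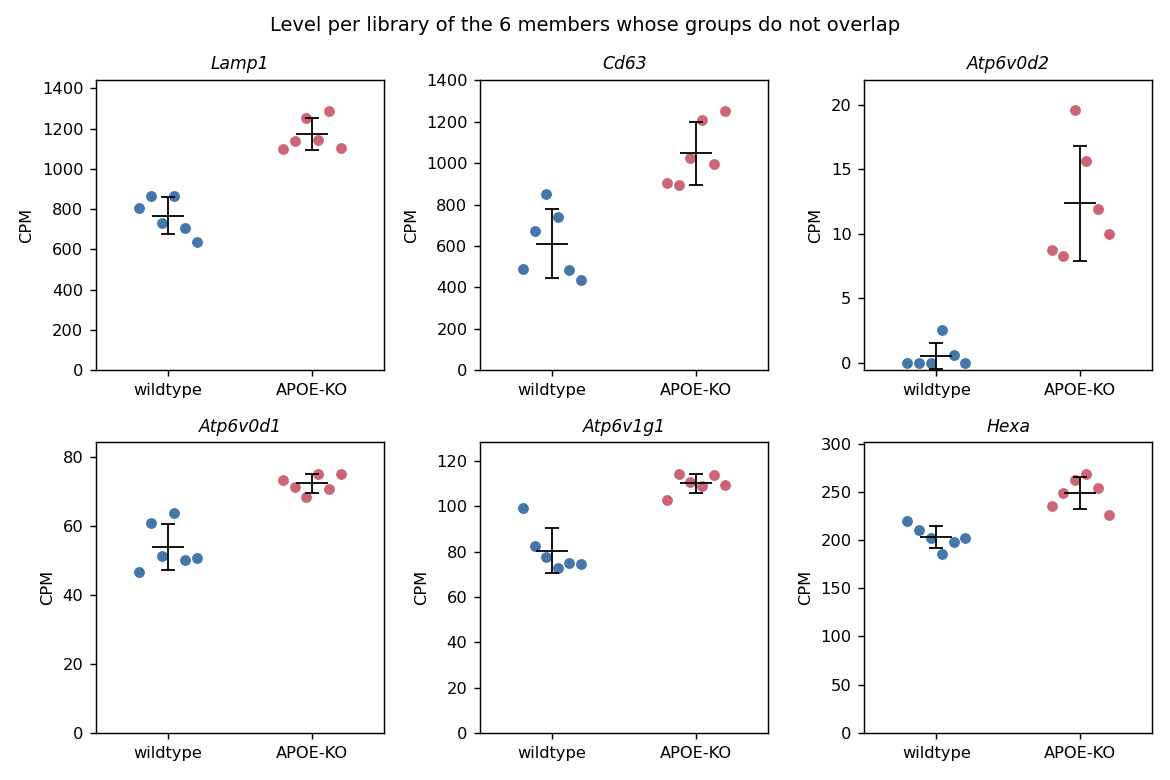
CPM in each library (points) with the mean and SD of each group (bars) for the 6 members whose groups do not overlap. Lamp1, Cd63 and Atp6v0d2 passed the threshold, while Atp6v0d1, Atp6v1g1 and Hexa did not (adjusted p = 0.165, 0.0795 and 0.242).

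The other membrane proteins did not pass. Lamp2, the partner of Lamp1 and a receptor in chaperone-mediated autophagy, had 101, 109 and 139.5 CPM in wildtype against 126, 141 and 200.2 in APOE-KO (lowest, median and highest), with overlapping groups (log2 fold change 0.39, adjusted p = 0.232). Mcoln1, a calcium channel of the lysosome, had 0.29, the macrophage glycoprotein Cd68 had 0.26, and Scarb2, which carries glucocerebrosidase to the lysosome, had 0.13 (adjusted p = 0.631, 0.514 and 0.745). Laptm5, a membrane protein of blood cells with 5946 to 17600 reads per library, had a log2 fold change of 0.05 with a 95% interval of -0.16 to 0.27.

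Epithelial markers moved with genotype beside these calls. The 16 markers summed to 176 to 248 CPM in wildtype, to 238 CPM in APOE-KO library 4 and to 13.3 to 78.8 CPM in the other APOE-KO libraries. Of 9 tested, Cdh1 fell and none rose, limma-voom called 5 lower, and Elf3 alone of the 16 had no read in APOE-KO. With their mean as a covariate neither Lamp1 nor Cd63 passed (adjusted p = 0.176 and 0.133), and Atp6v0d2 did (log2 fold change 4.75, adjusted p = 0.0119). Lamp1 and Cd63 had log2 fold changes of 0.60 and 0.85 in this fit, against 0.61 and 0.78 without the covariate. The mean was 3.55 to 4.04 log2 CPM in wildtype, 4.03 in APOE-KO library 4 and 0.10 to 2.66 in the other APOE-KO libraries. It largely follows genotype, so this fit cannot tell genotype from epithelial content. APOE-KO library 4, the 1 library of its group with an epithelial sum in the wildtype range, had 1144 CPM of Lamp1, 1209 CPM of Cd63 and 15.6 CPM of Atp6v0d2. The part of epithelial content in the members' results was not tested.

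**Figure D4:**
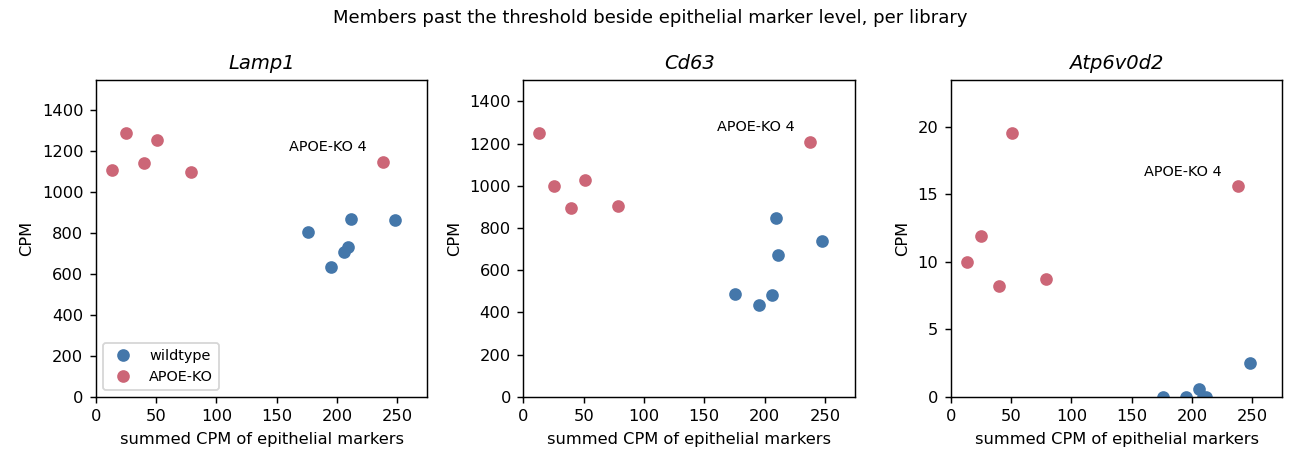
CPM of Lamp1, Cd63 and Atp6v0d2 (vertical axes) against the summed CPM of 16 epithelial markers (horizontal axes), 1 point per library. The epithelial sum is 176 to 248 CPM in wildtype, 238 CPM in APOE-KO library 4 and 13.3 to 78.8 CPM in the other APOE-KO libraries, and its part in the 3 genes' levels was not tested.

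Markers of other cells that a digested node can hold also moved, those of macrophages in both directions and those of plasmacytoid dendritic cells lower. The 17 macrophage markers summed to 1338 to 1657 CPM in wildtype against 1298 to 1641 in APOE-KO, and of 15 tested Cd5l and C1qb rose while Timd4, Marco, Mrc1 and Folr2 fell. Of 10 markers of plasmacytoid dendritic cells 4 fell (Siglech, Klk1, Cox6a2 and Runx2), and the list summed to 1481 to 3183 CPM in wildtype against 1176 to 1549 in APOE-KO. All 10 log2 fold changes were negative, with a median of -0.59, and 8 had an unadjusted p under 0.05 in edgeR's test. DESeq2 called 7 of them lower and limma-voom 3. No marker of monocytes and neutrophils, NK cells or endothelial and stromal cells passed in any of edgeR, DESeq2 and limma-voom, with 0, 1 and 2 at an unadjusted p under 0.05 in edgeR. Of those tested, 5 of 5 NK cell markers and 6 of 7 endothelial and stromal markers had a negative change. In the monocyte and neutrophil list 4 of 6 were positive. In the list for dendritic cells Ccr7 and Sirpa rose, but 8 of 14 changes were negative and the median log2 fold change was -0.01. Of 5 genes with an unadjusted p under 0.05 in edgeR's test, 3 were higher (Ccr7, Sirpa and Batf3). Xcr1 and Irf8 were lower, with log2 fold changes of -0.31 and -0.32, and did not pass. The part of these mixtures in the members' results was not tested.

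Glycosidases trim sugars from glycoproteins, glycolipids and glycogen, and none of the 7 passed in edgeR, DESeq2 or limma-voom. In edgeR's test 3 (Gla, Hexa and Glb1) had an unadjusted p under 0.05. The largest change was in Gla, which removes terminal galactose from glycolipids, at 15.3 ± 6.85 CPM in wildtype against 27.8 ± 9.27 in APOE-KO (SD, n = 6 each; log2 fold change 0.84 ± 0.29 SE, adjusted p = 0.186). It had 4.25, 15.4 and 25.8 CPM in wildtype against 22.7, 23.5 and 46.3 in APOE-KO (lowest, median and highest). The groups overlapped, and APOE-KO library 5 stood far above the others. Hexa, a subunit of the hexosaminidase that degrades gangliosides, had 185, 202 and 219.9 CPM in wildtype against 226, 251 and 269 in APOE-KO. Its groups did not overlap, but its change was small (log2 fold change 0.30 ± 0.11 SE, adjusted p = 0.242).

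Glb1, the lysosomal beta-galactosidase, and Gaa, which degrades glycogen, had log2 fold changes of 0.50 and 0.47 (adjusted p = 0.331 and 0.418). The glucuronidase Gusb had 0.09, the sialidase Neu1 0.06 and the mannosidase Man2b1 -0.01. For these the 95% intervals ran from -0.31 to 0.42 at their widest ends. As a sum, glycosidases stood at 631 to 766 CPM in wildtype against 724 to 824 in APOE-KO, with overlap.

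**Figure D5:**
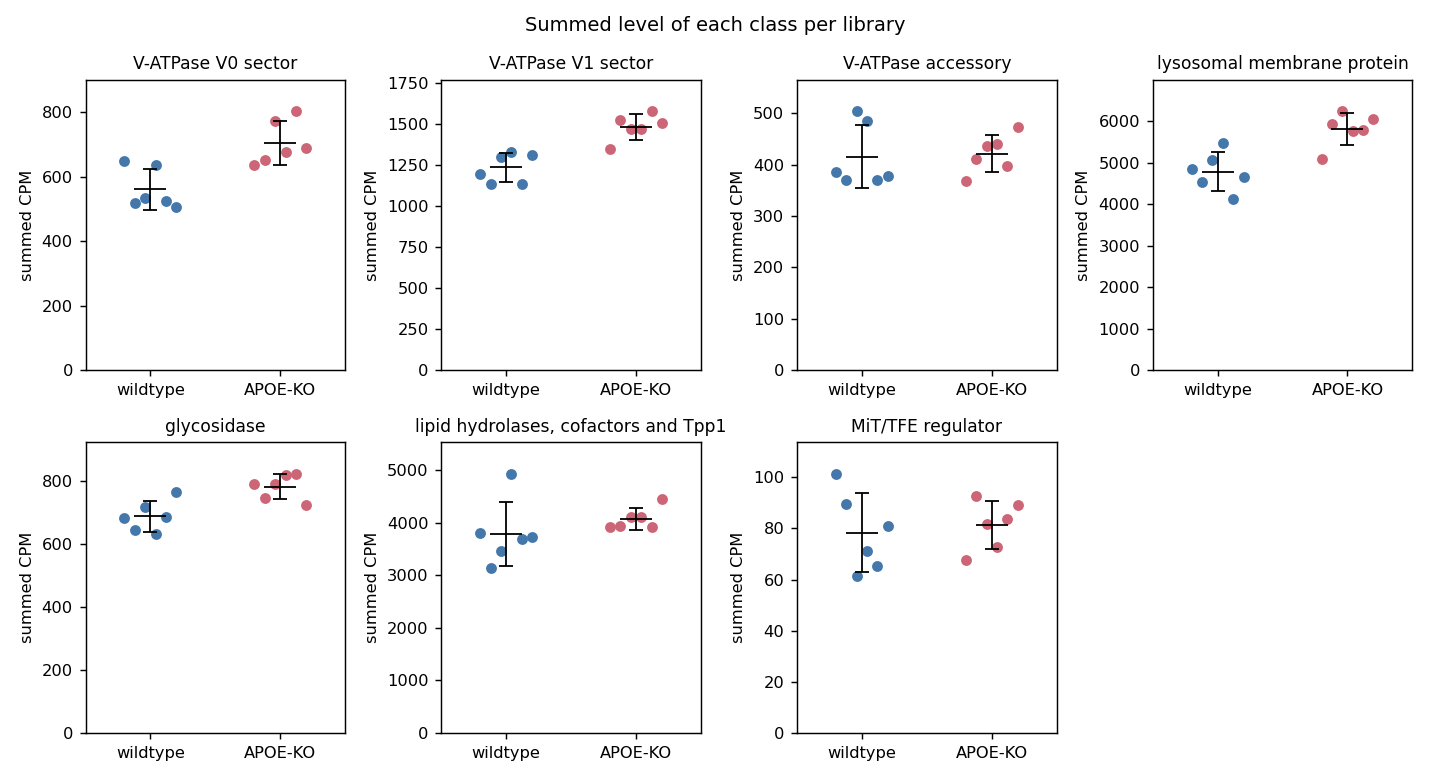
Summed CPM of each class in each library (points), with the mean and SD of each group (bars). The V1 sector has separate groups (1135.5 to 1332 against 1346 to 1580 CPM), while the accessory proteins and the MiT/TFE regulators have groups that overlap widely. In the lipid hydrolase class the overlap comes from wildtype library 4 alone (4939.5 CPM). The next wildtype library is at 3804 and the lowest APOE-KO library at 3916 CPM.

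In the class of lipid hydrolases and their cofactors none of 6 genes passed by any of these tools, and Asah1 alone had an unadjusted p under 0.05 in edgeR's test. The class median of the log2 fold change was 0.14, beside 0.39 for V0, 0.34 for V1, 0.30 for glycosidases, 0.29 for membrane proteins, 0.04 for the MiT/TFE regulators and 0.01 for the accessory proteins. These medians were not tested against each other. Asah1, the acid ceramidase, had the largest change, from 46.3 ± 7.61 to 58.8 ± 6.04 CPM (SD, n = 6 each; log2 fold change 0.34 ± 0.16 SE, adjusted p = 0.376). Tpp1, a peptidase, had 0.25, and Smpd1, the acid sphingomyelinase, had 0.13 (adjusted p = 0.57 and 0.881). Both lie on the chromosome that holds Apoe, 86.0 and 85.9 megabases from it.

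Psap, the precursor of the saposins that present lipids to their hydrolases, had 2010 to 3629 CPM in wildtype against 2489 to 3299 in APOE-KO, with a log2 fold change of 0.15 (95% interval -0.11 to 0.40). Grn, the precursor of the granulins, had 0.05 (-0.19 to 0.30). Ppt1, which removes palmitate from proteins, had the most negative change of all members at -0.14 (-0.38 to 0.11, adjusted p = 0.717). In Ppt1, 3 of 6 APOE-KO libraries lay below all wildtype libraries.

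None of the 3 MiT/TFE regulators passed by any of these tools, and none had an unadjusted p under 0.05 in edgeR's test. Tfeb had 23.1, 29.6 and 44.6 CPM in wildtype against 23.6, 33.0 and 34.9 in APOE-KO (lowest, median and highest), and the groups overlapped fully. Its log2 fold change was 0.04 with a 95% interval of -0.38 to 0.45, and that of Tfe3 was -0.05 with an interval of -0.44 to 0.35. Mitf, a factor also known from melanocytes and osteoclasts, had 12.3 ± 2.48 and 16.0 ± 4.44 CPM (SD, n = 6 each; log2 fold change 0.40 ± 0.27 SE, interval -0.16 to 0.95, adjusted p = 0.611). These factors are controlled largely by phosphorylation and by entry into the nucleus, which counts of RNA do not measure.

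Other genes of the pathway were taken from 6 lists of 128 genes, of which 113 were tested. Of these 4 rose and none fell in edgeR's test, where 1.08% of all tested genes were called higher and 0.411% lower. The median log2 fold change of the 113 was 0.14. Unadjusted p-values under 0.05 were reached by 17 of them in the higher and 4 in the lower direction. Over all 10714 tested genes 1294 reached this, of which 672 were higher. DESeq2 and limma-voom called none of the listed genes lower, and DESeq2 called Laptm4b, a relative of Laptm5, higher besides the 4. In the hydrolase list 1 of 33 rose, Lyz2, the myeloid lysozyme, from 475 ± 107 to 730.02 ± 75.3 CPM (SD, n = 6 each; log2 fold change 0.62 ± 0.14 SE, adjusted p = 0.0182). Its neighbour and near copy Lyz1, which can share its reads, had 0.18 (adjusted p = 0.724). In the list of other membrane proteins and transporters 1 of 24 rose, Gpnmb, a glycoprotein of lysosomes and melanosomes and a known target of Mitf, from 3.73 to 21.4 CPM over wildtype libraries to 106.5 to 198 CPM over APOE-KO libraries (log2 fold change 3.56 ± 0.25 SE, adjusted p = 1.93e-09).

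In the list of autophagy genes of the TFEB network 2 of 18 rose. Sqstm1, the p62 cargo receptor, had 157, 178 and 201 CPM in wildtype against 215, 307 and 341 in APOE-KO (lowest, median and highest; log2 fold change 0.71 ± 0.13 SE, adjusted p = 0.00254). The gene overlaps Mrnip on the other strand. Vps39, a subunit of the HOPS complex that tethers late endosomes to lysosomes, had 26.4, 33.1 and 37.2 CPM in wildtype against 44.4, 54.1 and 64.1 in APOE-KO (log2 fold change 0.74 ± 0.16 SE, adjusted p = 0.0171). The groups did not overlap for Sqstm1, Vps39 and Gpnmb, and did for Lyz2. Without APOE-KO library 3 Lyz2 and Vps39 did not pass (adjusted p = 0.0553 and 0.0598), and with the epithelial mean as a covariate Gpnmb was the 1 gene of the 4 that did.

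No gene passed in the lists of other pump subunits and assembly factors (0 of 10 tested, median -0.05), mannose 6-phosphate tagging and sorting (0 of 10, median 0.10) and lysosomal nutrient sensing (0 of 18, median 0.17). Unadjusted p-values under 0.05 were reached by 1, 0 and 4 genes of these lists, and neither DESeq2 nor limma-voom called one. In the sensing list Tfec, the fourth MiT/TFE gene, had 3.90 to 12.8 CPM in wildtype against 5.93 to 25.1 in APOE-KO (log2 fold change 1.15 ± 0.38 SE, adjusted p = 0.159). It was named after its values were seen, as a relative of the regulators above.

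The members differed in how tightly their libraries agreed, which bears on what could be detected. Leaving out Atp6v0d2, the SD as a share of the mean ran in wildtype from 5.71% for Hexa to 44.8% for Gla, with a median of 17.3%, and in APOE-KO from 3.76% for Atp6v0d1 to 37.5% for Atp6v1h, with a median of 14.2%. Standard errors of the log2 fold change in the 35 members that did not pass were 0.10 to 0.29. Differences of the size seen in most of them were therefore not detectable one by one at this depth and spread, and their absence from the calls does not show equal levels.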

How the data were processed

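The authors deposited a table of whole-number read counts per gene symbol, not normalised, for 12 libraries (Lexogen 3' kit, per the labels' protocols). Per the submitters' processing notes, STAR 2.7.8a, featureCounts 1.5.1, R 4.1.0, DESeq2 1.4 and build mm10 were used. Annotation, strand setting, multiple matches and read filters were not given in the sources used here. A 3' library reads transcript ends, so counts were not divided by length.

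Columns were matched to samples by the labels' descriptions, and none was left unused. Genes were kept with edgeR's filterByExpr (minimum count 10, total 15), scaled with TMM factors, and tested with glmQLFit and glmQLFTest on genotype (edgeR 4.0.16, limma 3.58.1, R 4.3.3), with Benjamini-Hochberg adjustment over 10714 genes and a threshold of 0.05. CPM use the scaled library sizes. Intervals of log2 fold changes are 95% t intervals from the fit, and SE is the size of the change over the root of F. List means were taken over log2 CPM with a prior count of 2. At the depth of these libraries 3 reads stand for 0.525 to 1.59 CPM. The script was checked on simulated counts. No library repeated another of its group (chi-square per degree of freedom at least 6.87 for each pair).

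Same-numbered libraries did not deviate together (correlations -0.077 to 0.0185), so no replicate term was used. Positions come from GENCODE vM21 (GRCm38), promoter windows from RefSeq (GRCm38.p6), and similar transcript ends from blastn 2.17.0 (last 400 bases, at least 95% identity over 100 bases). Protein sequences were not used here.

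The members and all lists were chosen with earlier results of these data known. Every member is reported, with full statistics for those past the threshold and for the largest change in each class. Of the other lists, genes past the threshold are named. Alternatives were other size factors, filters and tools, DESeq2 1.42.0 among them, a replicate block, cell marker covariates, and fits leaving out each library.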

Additional observations from a re-analysis of the deposited data

Results flagged for a closer look

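In each group of 6 libraries, the gap between the farthest library and its nearest neighbour was set against the whole range of the group, for the 38 tested members. Of 76 groups, 7 had a gap over 0.625 of the range, or 9.21%, where chance alone flags about 1 in 20.

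Wildtype library 4 held the highest Atp6v0d2 of its group (2.50 CPM, the others 0 to 0.556) and the highest Psap (3629 CPM, the others 2010 to 2556). Wildtype library 3 held the lowest Atp6v1a (63.5 CPM, the others 157 to 179), and wildtype library 1 the highest Atp6v1g1 (99.3 CPM, the others 72.6 to 82.5). In APOE-KO, library 5 held the highest Atp6v1h (78.6 CPM, the others 31.8 to 47.1) and the highest Gla (46.3 CPM, the others 22.7 to 27.8), and library 1 the lowest Tfeb (23.6 CPM, the others 31.6 to 34.9). Of these libraries, wildtype 1, wildtype 3 and APOE-KO 5 also lay farthest out on the first 3 principal components.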

How the results depend on the processing

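The 3 members called higher became 1 with the epithelial mean as a covariate, under which 37 genes passed over the whole table, against 160 without it, and 1 other pathway gene, against 4. That mean largely follows genotype, so this fit cannot tell genotype from epithelial content, whose part in the lost calls was not tested. Over all genes tested, DESeq2 called 270 and 100 passed with the replicate number as a block. The block changed no member's call and ended that of Vps39 (adjusted p = 0.0817). No same-numbered pair correlated over 0.1. Fits without 1 library called 99 to 230 genes, 3 or 4 members higher and 2 to 6 other pathway genes, with APOE-KO library 3 giving the fewest genes. No setting called a member lower. Of 24 alternatives, Lamp1 and Cd63 passed in 23. Atp6v0d2 passed in all 22 that gave it an adjusted p: it failed the stricter filter, and DESeq2 gave none. The log2 fold change of Apoe ran from -6.66 to -6.26. Leaving out wildtype libraries 1 and 3 and APOE-KO library 5, chosen after the data were seen, left 4 members higher, Atp6v1g1 added, and the members' median at 0.21. Across settings 29 to 35 members were positive, and the median of all genes ran from -0.06 to 0.00363.

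Signs turned only in members near 0 or not past the threshold, and the cause was not tested. With the epithelial mean the log2 fold changes were 0.034 for Atp6v1d, -0.019 for Atp6v1f, -0.023 for Atp6ap1, 0.017 for Atp6ap2, -0.064 for Laptm5, -0.039 for Neu1, -0.087 for Grn and -0.11 for Tfeb. Without the 3 libraries they were 0.026 for Atp6v1d, -0.013 for Atp6v1h, 0.058 for Atp6ap2 and 0.00702 for Man2b1, and without a low-count filter 0.00692 for Man2b1. In fits without 1 library they ran from -0.017 to 0.19 for Neu1, -0.14 to 0.019 for Tfe3, -0.077 to 0.041 for Atp6v1d, -0.16 to 0.12 for Atp6ap2, -0.075 to 0.10 for Man2b1, -0.037 to 0.15 for Tfeb and -0.000997 to 0.19 for Atp6v1e1. Depth limits Atp6v0d2 (13 wildtype reads), Atp6v0c (no reads) and Gla, which had 8 reads in its lowest library.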
